A study of Homo sapiens with 6 samples.

Results

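The JNK and p38 kinase cascade was described from 10 genes that encode its kinases: MAP4K5, MAP3K1, MAP3K5, MAP2K3, MAP2K4, MAP2K6, MAP2K7, MAPK8, MAPK9 and MAPK14. They were chosen on the same array values that are described here, namely the log2 intensities on the control-labelled and PSMA-labelled arrays, so their differences between the groups are given as a description with no test. Of the 10 genes, 7 had at least 1 probe set annotated to that gene alone, 14 probe sets in all, out of 19064 single-gene probe sets for 11963 genes. Another 3 probe sets were annotated to both MAP2K3 and LOC100996792 and cannot separate these genes. For MAP2K7 and MAPK14, the annotation used named no probe set, and their own signal was not analysed here.

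The arrays carried RNA of PC3, a human prostate cancer cell line derived from a bone metastasis, grown in RPMI medium. By the labels, 3 arrays (replicates 1 to 3) held control cells, called wild type in the titles and genotype field but vector only in the source field, and 3 arrays (replicates 4 to 6) held cells transfected with a pLNCX plasmid carrying human prostate-specific membrane antigen (PSMA, encoded by FOLH1). Plasmid DNA (3 µg) was delivered with FuGENE 6 for 30 min, cells recovered for 72 h, and puromycin was then used for selection. The labels do not say whether a group was 1 clone or a pool, nor whether the replicates came from separate cultures; the p-values below therefore measure only the spread between these arrays, which may be technical.

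Signal on the probe sets of FOLH1 went against the labels. Its single-gene probe set read 60.5 ± 0.914 (SD, n = 3) on control-labelled arrays and 28.1 ± 3.80 on PSMA-labelled arrays, and the brightest of the 3 shared with FOLH1B read 480.8 ± 65.3 and 12.5 ± 3.44. On all 5 probe sets of FOLH1 and FOLH1B, every control-labelled array lay above every PSMA-labelled one. All directions therefore follow the labels as deposited, and "higher" or "lower" means on the PSMA-labelled arrays. Whether the groups were exchanged was not tested; if they were, every sign, every rank from the lowest or highest and every share higher or lower given below would turn. Arrays of 1 group correlated across probe sets at r = 0.998 (lowest pair 0.9976), and arrays of different groups at 0.987 to 0.988. The 3'/5' signal ratio of GAPDH, a sign of RNA integrity, was 1.22 to 1.34 on control-labelled arrays and 1.28 to 1.45 on PSMA-labelled arrays, and that of ACTB was higher, at 3.86 to 5.10 and 3.68 to 5.20. All 5 epithelial markers (KRT8, KRT18, KRT19, EPCAM and CDH1) were above the filter on dim signal; their summed intensity was 16514 to 17012 on control-labelled arrays and 13233 to 13716 on PSMA-labelled arrays, and its part in the results was not tested. The 4 measured markers of luminal prostate and the 6 of leucocytes were all below the filter, as were 5 of 7 of fibroblasts and endothelium. In RNA of bulk cells, a lower level in every cell and fewer cells with the transcript cannot be told apart.

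Stress-activated kinases work as a relay. Kinases of the MAP4K and MAP3K classes respond to cytokines, oxidants and other stresses and phosphorylate the MAP2K enzymes, which in turn phosphorylate a threonine and a tyrosine in JNK (MAPK8, MAPK9 and MAPK10) or p38 (MAPK11 to MAPK14). MAP2K4 can act on both JNK and p38, MAP2K7 acts on JNK, and MAP2K3 and MAP2K6 act on p38. JNK phosphorylates JUN and related transcription factors of the AP-1 family, while p38 acts through further kinases such as MAPKAPK2. In prostate cancer, MAP2K4 has been studied as a suppressor of metastasis. The arrays measure transcripts and give no information on phosphorylation.

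The upstream sequences of MAP2K4, MAP2K3 and MAP2K6 are shown because the probe sets of these kinase kinases had the largest differences among those described; that of MAP2K7, whose signal was not analysed, is not shown. The 250 bases before the annotated start were taken from RefSeq (GRCh38.p14), in which 9 of the 10 members had an entry; MAP3K1 did not. Capitals mark a GC box (GGGCGG or CCGCCC), an AP-1 motif (TGACTCA or TGAGTCA), a cyclic AMP response element (TGACGTCA) or a CCAAT box (CCAAT or ATTGG), each searched on both strands. MAP2K4 is at chr17:12020627-12020876, MAP2K3 at chr17:21284461-21284710 and MAP2K6 at chr17:69414447-69414696, all on the plus strand.
MAP2K4: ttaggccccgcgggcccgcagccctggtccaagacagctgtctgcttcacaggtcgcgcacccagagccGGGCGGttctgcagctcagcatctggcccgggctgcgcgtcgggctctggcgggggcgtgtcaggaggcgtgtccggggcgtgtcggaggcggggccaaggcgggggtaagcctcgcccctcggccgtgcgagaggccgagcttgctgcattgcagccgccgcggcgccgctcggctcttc
MAP2K3: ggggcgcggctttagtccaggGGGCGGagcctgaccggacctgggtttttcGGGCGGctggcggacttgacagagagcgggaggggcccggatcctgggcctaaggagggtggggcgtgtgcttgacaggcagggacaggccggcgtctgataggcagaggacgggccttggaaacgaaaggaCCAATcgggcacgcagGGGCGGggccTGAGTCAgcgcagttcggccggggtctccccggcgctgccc
MAP2K6: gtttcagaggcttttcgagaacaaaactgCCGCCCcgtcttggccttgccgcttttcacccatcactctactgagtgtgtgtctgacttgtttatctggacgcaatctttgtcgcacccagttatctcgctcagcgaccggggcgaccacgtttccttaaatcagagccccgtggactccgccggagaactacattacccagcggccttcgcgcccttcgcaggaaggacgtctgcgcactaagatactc
The windows of MAP2K4 and MAP2K6 each held 1 GC box and none of the other motifs. That of MAP2K3 held 3 GC boxes, 1 AP-1 motif and 1 CCAAT box. Among 35116 such windows in the RefSeq table, 42.6% held a GC box, 32.0% a CCAAT box, 4.20% an AP-1 motif and 1.65% the cyclic AMP response element. GC content was 74.0% for MAP2K4, 70.4% for MAP2K3 and 55.6% for MAP2K6, against a median of 58% over these windows. The matches are descriptions of sequence, not sites of binding.

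MAP2K4, the kinase kinase shared by JNK and p38, had by far the largest difference among the single-gene members. Its probe set 203266_s_at read 990.3, 921 and 917 on the control-labelled arrays and 160.0, 156 and 159 on the PSMA-labelled arrays. All 3 PSMA-labelled arrays were thus below every control-labelled array. The group means were 943 ± 41.1 and 158 ± 2.17 (SD, n = 3), a 5.96-fold lower signal (log2 difference -2.57, SE 0.046). The other probe set, 203265_s_at, read 615, 627 and 584 on control-labelled arrays and 104, 109 and 96.1 on PSMA-labelled arrays, 5.92-fold lower. The probe sets thus gave almost the same fold, and both stayed above the filter on dim signal in both groups. Among 7035 tested genes ordered by log2 difference, MAP2K4 was number 15 from the lowest.

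The probe sets shared by MAP2K3, a p38 kinase kinase, and LOC100996792 were also lower on PSMA-labelled arrays. The first, 207667_s_at, read 464, 457 and 472 on control-labelled arrays and 154, 157 and 160.4 on PSMA-labelled arrays, a 2.96-fold difference. The second, 215498_s_at, read 490.3, 462 and 524 against 166, 155 and 143, a 3.18-fold difference. The third, 215499_at, read 755, 641 and 716 against 250.2, 245 and 235, a 2.89-fold difference. In each, the groups were well apart, with log2 differences of -1.53 to -1.67. How the signal divides between the genes was not resolved.

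MAP2K6, the other p38 kinase kinase, went the opposite way. Probe set 205698_s_at read 104, 108 and 102 on control-labelled arrays and 191, 200.4 and 195 on PSMA-labelled arrays. Means were 105 ± 3.25 and 195 ± 4.80 (SD, n = 3), 1.87-fold higher on PSMA-labelled arrays (log2 difference 0.90, SE 0.044), and the groups did not overlap. Its second probe set, 205699_at, was dim, at 11.6, 10.8 and 12.8 against 15.6, 18.2 and 14.3, and had a log2 difference of 0.45. With a floor at 13.0, the 25th percentile of all values, that difference was 0.29. MAP2K6 was number 188 from the highest of the 7035 tested genes.

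**Figure D1:**
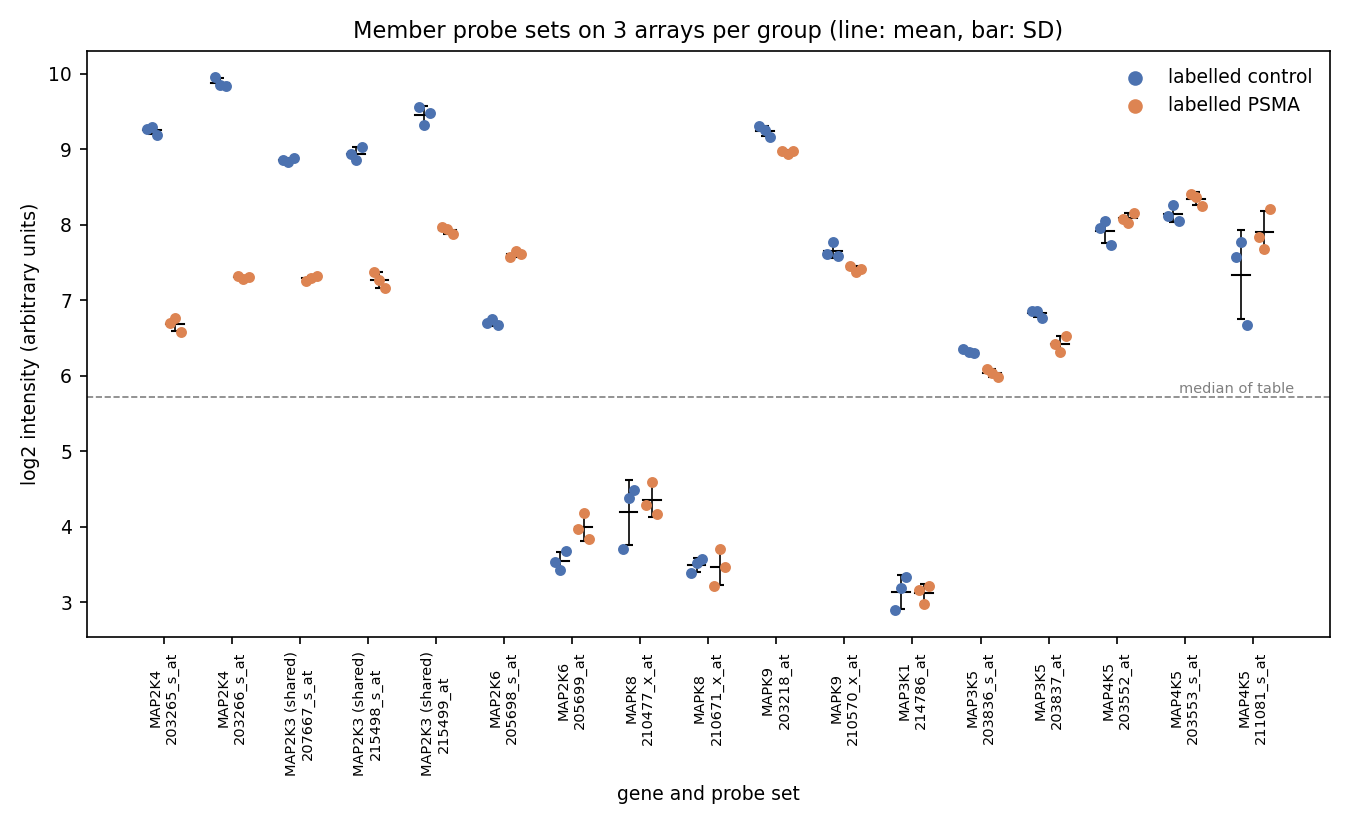
Log2 intensity (arbitrary units) of the 17 probe sets annotated to members, including the 3 shared by MAP2K3 and LOC100996792, on the 3 arrays of each group (points; line, mean; bar, SD). MAP2K4 and the shared probe sets are lower on PSMA-labelled arrays, MAP2K6 is higher, and the probe sets of MAPK8 and MAP3K1 lie under the median of the table (dashed line).

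The JNK genes showed smaller differences or no usable signal. MAPK9, which encodes JNK2, read 631, 609 and 575 on control-labelled arrays and 504, 489 and 503 on PSMA-labelled arrays on probe set 203218_at. That is 605 ± 28.2 against 499 ± 8.55 (SD, n = 3), 1.21-fold lower, with no overlap (log2 difference -0.28, SE 0.048). Probe set 210570_x_at read 196, 218 and 193 against 175, 167 and 171, also without overlap, with a log2 difference of -0.24. MAPK8, which encodes JNK1, was represented by dim probe sets, at 13.0 to 22.5 and 18.1 to 24.2 on 210477_x_at and at 10.5 to 12.0 and 9.33 to 13.1 on 210671_x_at in the respective groups. The groups overlapped on both, and the log2 differences of 0.16 and -0.03 changed sign when single arrays were left out (-0.08 without control replicate 1, 0.01 without control replicate 3 and 0.09 without PSMA replicate 4). Whether MAPK8 differed could not be read from signal this low.

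Of the upstream kinases, MAP3K5 (ASK1), which responds to oxidative stress and is held inactive by thioredoxin, was lower on PSMA-labelled arrays. Probe set 203837_at read 116, 116 and 109 on control-labelled arrays and 85.4, 79.5 and 92.7 on PSMA-labelled arrays, 1.33-fold lower (log2 difference -0.41, SE 0.062). Probe set 203836_s_at read 81.9, 79.6 and 79.2 against 68.2, 65.8 and 63.0, 1.22-fold lower. On both, each PSMA-labelled array was below each control-labelled array. MAP3K1 (MEKK1), an activator of the JNK branch that carries a ubiquitin ligase domain, had 1 probe set at 7.46 to 10.1 on control-labelled arrays and 7.91 to 9.32 on PSMA-labelled arrays, under the 25th percentile throughout. Its groups overlapped, and no difference was measurable there.

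MAP4K5, a germinal centre kinase at the top of the relay, had slightly higher mean signal on PSMA-labelled arrays, but its groups overlapped on each of its 3 probe sets. Probe set 203553_s_at read 277, 307 and 266 on control-labelled arrays and 340.2, 332 and 305 on PSMA-labelled arrays (log2 difference 0.20, SE 0.066). Probe set 203552_at read 249, 264 and 213 against 271, 261 and 285 (log2 difference 0.17, and 0.09 without control replicate 3). On 211081_s_at the values were 189.9, 219 and 102 against 228, 205 and 296, and the log2 difference of 0.57 was 0.24 without control replicate 3, the array with the low value. The SD of that probe set on the log2 scale was 0.46 within groups, against a median of 0.066 over all tested genes.

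Counted over the 14 single-gene probe sets, the groups did not overlap in 8, of which 6 were lower and 2 higher on PSMA-labelled arrays. Over all 19064 single-gene probe sets the share without overlap was 46.4%. Of the 10 members' probe sets above the filter, 7 did not overlap, and over all 11303 probe sets above it the share was 67.3%. The members were chosen on this contrast, so nothing is read from these counts. By limma, 63.6% of the 7035 tested genes passed an adjusted p of 0.05, 30.1% higher and 33.5% lower, and 60.6% of the 11303 probe sets did. In this setting most differences were small, with a median size of 0.22 on the log2 scale, and MAP2K4 stood at rank 23 by size, MAP2K6 at 411, MAP3K5 at 1747, MAPK9 at 2798 and MAP4K5 at 3682.

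**Figure D2:**
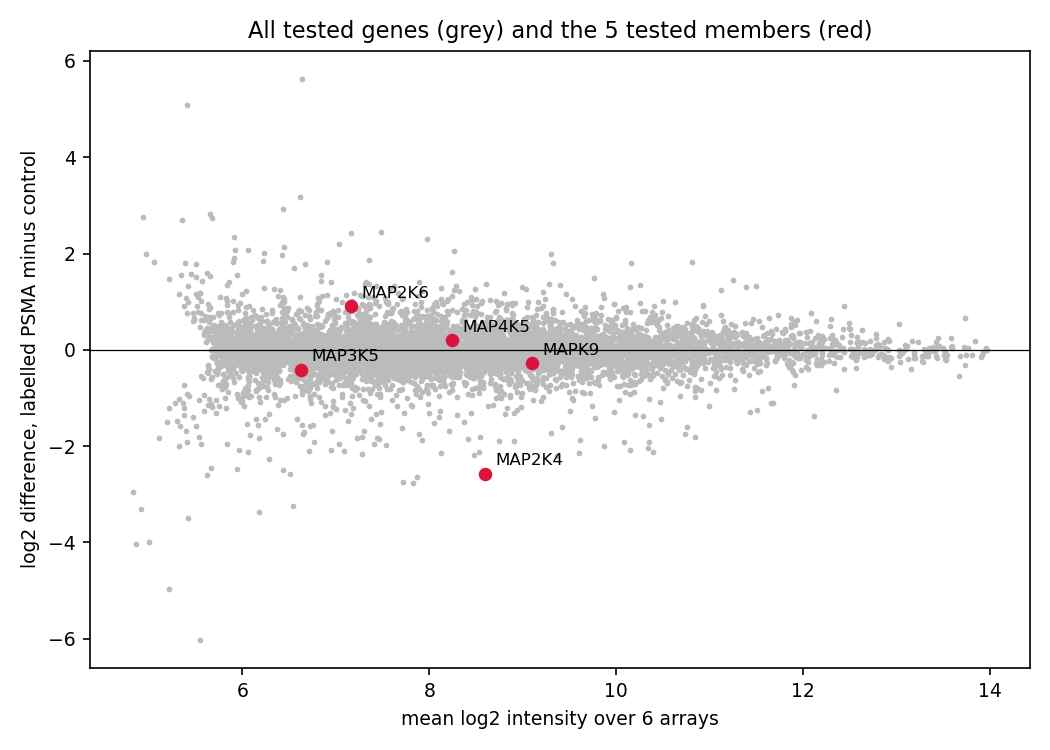
Log2 difference (labelled PSMA minus control) against mean log2 intensity over the 6 arrays for the 7035 tested genes (grey) and the 5 tested members (red). MAP2K4, at -2.57, lies far below the main band, and MAP2K6, at 0.90, lies at its upper edge, while MAPK9, MAP3K5 and MAP4K5 lie within it.

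MAP2K4 and MAP2K3 lie on chromosome 17, and the tested genes between them in RefSeq order were lower with few exceptions. Of these 30 genes, 30 had a log2 difference below 0, with a median of -1.89. By limma at the adjusted threshold 29 were lower, and 28 were lower by at least 2-fold. Over all 7035 tested genes, 52.1% were below 0 and 33.5% were lower by limma. Of the 7035, 177 were lower by limma and by at least 2-fold. Among the 30, the exceptions to the 2-fold fall were UBB (-0.55), which passed, and the pseudogene USP32P2 (-0.02), which did not. On PSMA-labelled arrays HS3ST3A1 (8.34), ATPAF2 (30.5), GID4 (36.8), MED9 (42.0) and ULK2 (50.7) averaged under the filter level, the median of the table. They are counted in the 29 and the 28, but were tested mainly through their brighter control-labelled arrays, and their sizes are uncertain. The stretch also holds MAPK7, which encodes ERK5, a kinase of a parallel MAPK relay; it went from 183 ± 13.8 on control-labelled arrays to 56.1 ± 2.06 on PSMA-labelled arrays (SD, n = 3; log2 difference -1.70, limma adjusted p = 1.4e-07). ELAC2, the tested gene next to MAP2K4 on one side, was 4.62-fold lower. ADPRM, the nearest on the other side, differed by -0.14 on the log2 scale and did not pass (limma), and 4 of the 7 nearest tested genes on that side were above 0. Beyond MAP2K3, the next tested gene, WSB1, had a log2 difference of -0.11.

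**Figure D3:**
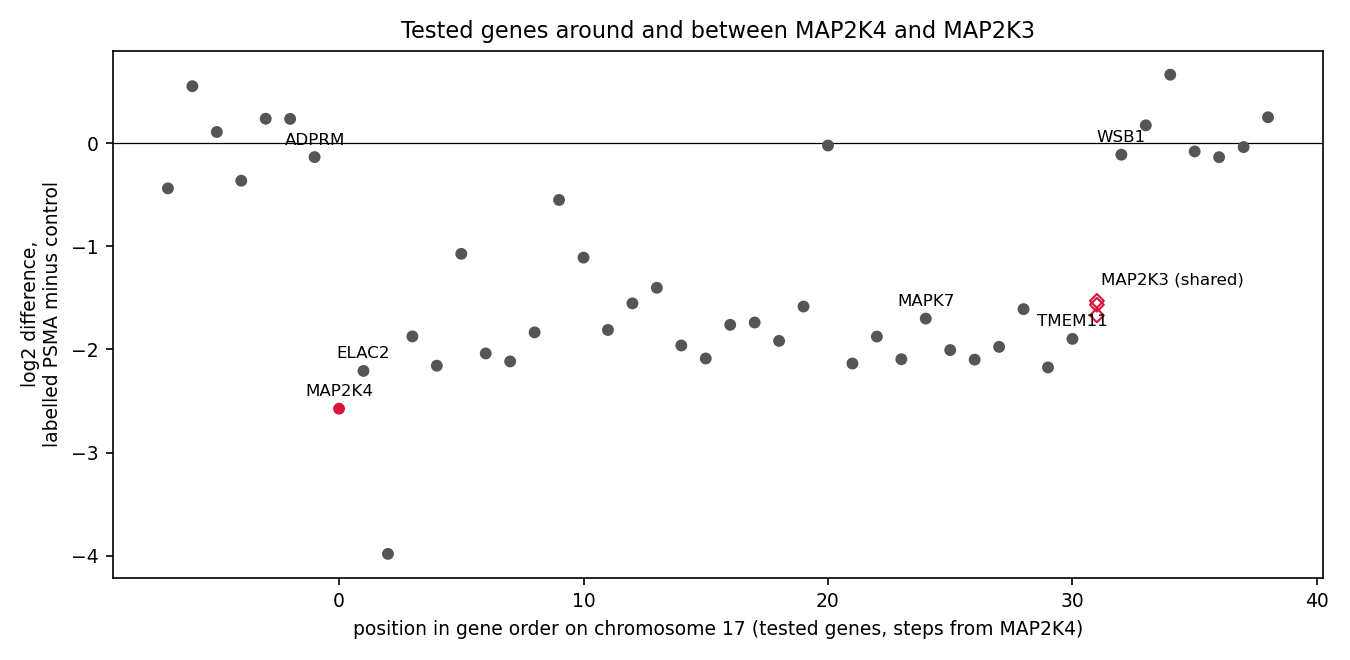
Log2 difference (labelled PSMA minus control) of tested genes on chromosome 17 in RefSeq order, counted in steps from MAP2K4 (red point); open diamonds are the 3 probe sets shared by MAP2K3 and LOC100996792. Values drop between ADPRM (-0.14) and MAP2K4 (-2.57). They stay low to TMEM11 (-1.90) and the shared probe sets, except at UBB (-0.55) and USP32P2 (-0.02). Near 0 again is WSB1 (-0.11), the next tested gene.

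Neighbours of the other tested members were counted in the same way. MAP2K6 lies farther along the same chromosome, where 9 of its 14 nearest tested genes were above 0 and 5 below, with a median log2 difference of 0.12 and a highest value of 0.53, against 0.90 for MAP2K6. Around MAP3K5 on chromosome 6, 10 of 14 were below 0 (median -0.16). Around MAPK9 near the end of chromosome 5, 7 of 11 were below 0 (median -0.03). Around MAP4K5 on chromosome 14, 12 of 14 were at or above 0 (median 0.21), reaching 2.08 at PTGER2, a prostaglandin receptor gene. PTGER2 averaged 32.6 on control-labelled arrays, under the median of the table, and 138 on PSMA-labelled arrays, so its size rests on dim signal in the control group. Over all tested genes, 52.1% were below 0.

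The 5 genes whose log2 values followed MAP2K4 most closely over the 6 arrays were SLC35A2, a Golgi carrier of UDP-galactose, CXCR4, a chemokine receptor, MICB, a ligand of natural killer cells, PPIC, a cyclophilin, and RBM47, an RNA-binding protein. Pearson's r was 0.9997 to 0.9999 for each. These arrays form 2 clusters, so r mainly reflects the gap between groups, and 364 genes reached 0.99. The size of the difference varied widely among the 5, from a log2 difference of -0.71 for MICB to -3.50 for CXCR4. CXCR4 averaged 144 on control-labelled arrays and 12.7 on PSMA-labelled arrays. The latter mean is under the 25th percentile of 13.0, so the size for CXCR4 is uncertain.

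The other genes of the cascade were taken from lists by role, drawn up with earlier results of these data known. Of 147 listed genes, 102 were tested, and 62 passed (limma), 27 higher and 35 lower. That share, 60.8%, lay near the 63.6% of all genes. The median log2 difference was -0.03, against -0.01 over all tested genes, and 3 genes, MAPK7, ATF3 and DUSP1, were lower by 2-fold or more. Tested against a minimum fold of 1.5, 7 of the 102 passed (limma).

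At the level of the MAPK itself, the 2 tested genes besides MAPK9 moved apart. MAPK13, which encodes p38 delta, fell from 354 ± 7.85 on control-labelled arrays to 202 ± 15.4 on PSMA-labelled arrays (SD, n = 3; log2 difference -0.81, SE 0.06, limma adjusted p = 7.1e-06). MAPK12, which encodes p38 gamma, rose from 43.4 ± 2.49 to 53.6 ± 1.21 (0.30, limma adjusted p = 0.00095). Its control-labelled arrays, at 41.4 to 46.2, all lay below the filter level, the median of the table. Its PSMA-labelled arrays, at 52.9 to 55.0, lay just above that level, so MAPK12 was tested only through its higher group. MAPK10 and MAPK11, which encode JNK3 and p38 beta, were below the filter. Of 8 tested genes of the ERK branch and atypical MAPKs, 4 fell, 0 rose and 4 did not pass. Among all genes, 33.5% were lower and 30.1% higher. The share of the list that passed, 50%, lay below the 63.6% of all genes. One that fell, MAPK7, lies in the stretch of chromosome 17 described above. Beside MAPK7, the kinase genes ARAF (-0.54) and MAPK6 (-0.27) fell, as did MAP2K1 by a log2 difference of -0.14.

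Among the MAP3K genes and their adaptors, 6 of 14 tested genes rose, 2 fell and 6 did not pass, against 30.1% of all genes higher and 33.5% lower. The list's median log2 difference was 0.07. MAP3K14, the NF-kB-inducing kinase, rose by 0.41, MAP3K7 (TAK1), a kinase activated by cytokine and TGF-beta receptors, by 0.36 and MAP3K3 by 0.29 on the log2 scale. MAP3K7 went from 296 ± 10.5 to 378 ± 8.56 (SD, n = 3), with all 4 of its probe sets in the same direction. MAP3K20, the ribotoxic stress kinase ZAK, had a log2 difference of -0.28 and TAB2, an adaptor of MAP3K7, of -0.22. The call of TAB2 did not hold. It was lost without control replicate 1 (log2 difference -0.14, limma adjusted p = 0.0567), without PSMA replicate 4 (-0.23, limma adjusted p = 0.0516), without PSMA replicate 5 (-0.21, limma adjusted p = 0.0683) and with dim probe sets kept (-0.22, limma adjusted p = 0.0602).

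Of 9 tested MAP4K and related upstream kinases, 2 rose and 4 fell, against 30.1% of all genes higher and 33.5% lower. STK24, a germinal centre kinase, went from 838 ± 19.4 to 1439 ± 31.6 (SD, n = 3), a log2 difference of 0.78 (SE 0.042, limma adjusted p = 1.3e-06), and its relative STK25 rose by 0.42. STK26, another kinase of the same family, went from 2097 ± 159 to 1292 ± 24.2 (-0.70), and the Hippo kinase STK3 had a difference of -0.41. MAP4K4 had a difference of -0.27 on its brightest probe set, but its other probe set pointed the other way.

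GTPases and adaptors that feed the relay went both ways, with 3 of 11 higher and 5 lower. The shares over all genes were 30.1% higher and 33.5% lower. GADD45B, a stress-induced activator of MAP3K4, rose from 203.5 ± 7.58 to 319 ± 10.1 (SD, n = 3; log2 difference 0.65, limma adjusted p = 6.5e-06). The adaptor gene CRKL rose by 0.32 and RHOA by 0.16. TRAF4 (-0.61), RHOB (-0.46) and CDC42 (-0.26) fell. RAC1 did not pass (log2 difference 0.02).

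In the list of ASK1 inhibitors and redox partners, 5 of 12 tested genes were lower, 1 was higher and 6 did not pass, against 33.5% of all genes lower and 30.1% higher; with dim probe sets kept, 3 passed instead of 6. GSTP1, a glutathione transferase that also binds JNK, went from 1478 ± 99.9 to 884.5 ± 31.4 (SD, n = 3; log2 difference -0.74, limma adjusted p = 9.5e-06). TXN, which encodes the thioredoxin that binds ASK1, had a difference of -0.27 and the glutaredoxin gene GLRX of -0.26. The other glutathione transferase genes tested, GSTM1 (0.10) and GSTM2 (0.14), did not pass, nor did TXN2 (-0.05). TXNRD1, thioredoxin reductase, was 0.13 higher, a call that did not hold (limma adjusted p = 0.0585 without PSMA replicate 5, 0.0568 without PSMA replicate 6 and 0.0562 with dim probe sets kept, at log2 differences of 0.13, 0.12 and 0.13). Of 5 tested scaffold genes, SPAG9 (JIP4), which tethers JNK and p38 kinases, rose from 728 ± 47.2 to 1081 ± 44.1 (log2 difference 0.57, limma adjusted p = 4.8e-05), and the other 4 did not pass; 2 of the list passed with dim probe sets kept or with probe sets averaged.

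Among phosphatases that switch off JNK and p38, the tested genes that passed were all lower. Of 12 tested genes 6 fell, 0 rose and 6 did not pass, against 33.5% of all genes lower and 30.1% higher. The share that passed, 50%, lay below the 63.6% of all genes. Tested against a minimum fold of 1.5, 1 passed (limma). DUSP1, an immediate early phosphatase of p38 and JNK, went from 281 ± 11.7 on control-labelled arrays to 135 ± 4.80 on PSMA-labelled arrays (SD, n = 3; log2 difference -1.05, SE 0.049, limma adjusted p = 5.8e-07). DUSP10, which acts on the same kinases, went from 147 ± 8.77 to 84.7 ± 9.07 (-0.80), and DUSP2 from 70.0 ± 2.22 to 43.0 ± 3.21 (-0.71). The PSMA-labelled arrays of DUSP2, at 39.8 to 46.2, all lay below the filter level, the median of the table. DUSP2, 1 of the 6 that fell, was thus tested only through its control-labelled arrays, at 67.5 to 71.5. DUSP14 and the phosphatase 2A subunit PPP2CB had differences of -0.44 and -0.50, and were not among the genes set by the naming rule.

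Kinases and RNA-binding proteins downstream of p38 were mostly higher. Of 13 tested genes 9 rose and 2 fell, against 30.1% of all genes higher, and the list's median log2 difference was 0.19. With dim probe sets kept or without PSMA replicate 6, 9 passed instead of 11. Tested against a minimum fold of 1.5, 1 passed (limma). ELAVL1, among those that rose, had only 1 of its 2 probe sets in that direction. RPS6KA5 (MSK1), a nuclear kinase that phosphorylates histone H3, went from 94.4 ± 3.45 to 165 ± 2.90 (SD, n = 3; log2 difference 0.81, limma adjusted p = 1.4e-06). MAPKAPK2, the main p38 effector kinase, rose from 320 ± 10.9 to 438 ± 3.68 (0.45), and ZFP36L2, a protein that promotes decay of AU-rich messages, rose by 0.62. ZFP36, its inducible relative, fell from 76.3 ± 7.18 to 51.3 ± 3.07 (-0.57), and MKNK1, a kinase of the cap-binding protein, fell by 0.50 on the log2 scale.

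Transcription factors at the end of the relay split, with 4 of 16 higher and 6 lower. The shares over all genes were 30.1% higher and 33.5% lower. JUN, the main JNK substrate, rose from 652 ± 42.2 to 783 ± 20.5 (SD, n = 3; log2 difference 0.27, limma adjusted p = 0.003), with all 3 probe sets in the same direction, while JUND fell (-0.69). ATF3, a stress-induced factor, went from 283 ± 15.1 to 88.1 ± 4.81 (-1.68, limma adjusted p = 1.1e-07), and DDIT3 (CHOP), a p38 substrate, from 337 ± 9.93 to 202 ± 13.6 (-0.74). MAX, the partner of MYC, rose from 596 ± 20.9 to 1106 ± 24.8 (0.89) on its brightest probe set, with all 5 in the same direction, and MEF2C, a p38 substrate, rose by 0.25. With the mean of a gene's probe sets, the log2 differences were 0.54 for MAX, 0.55 for MEF2C and 0.40 for JUN. ATF2, a substrate of both kinases, did not pass (log2 difference 0.05).

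**Figure D4:**
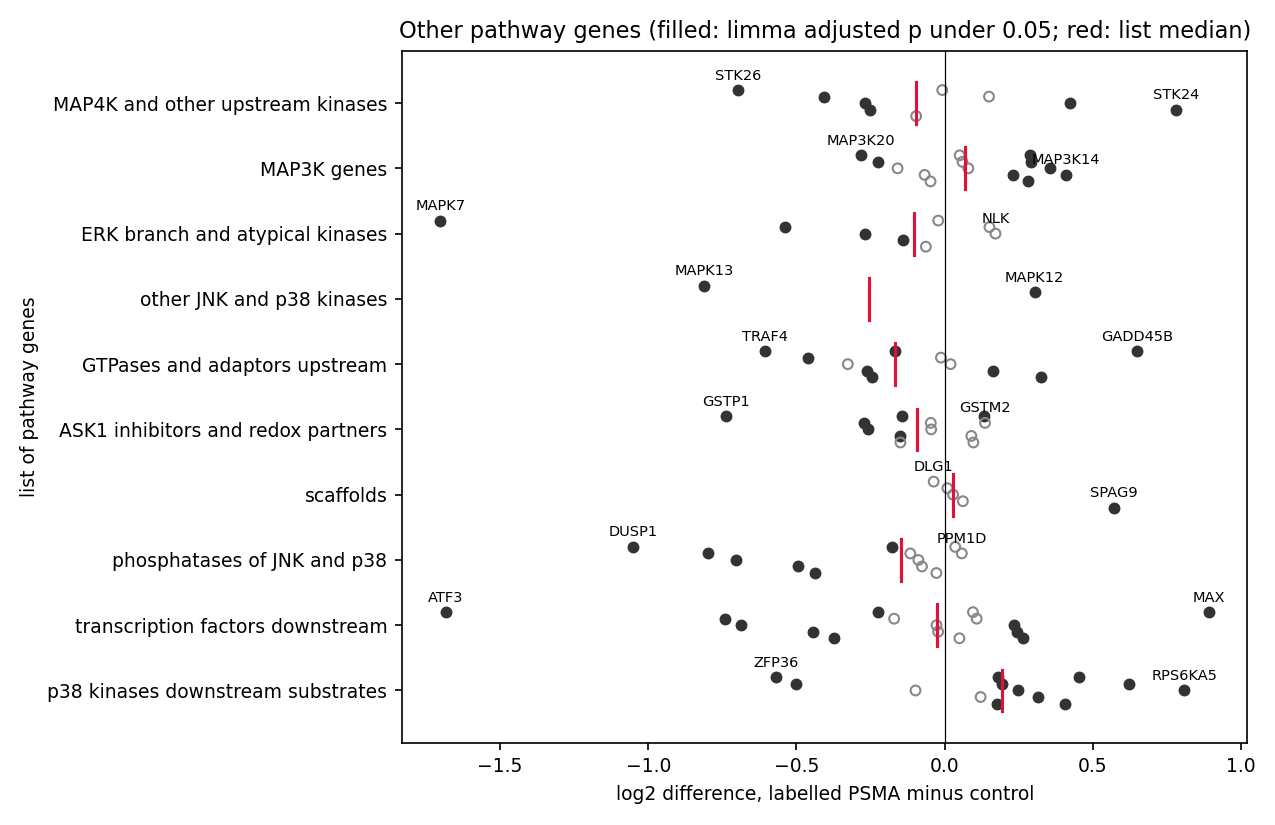
Log2 difference (labelled PSMA minus control) of each tested gene in the 10 lists of other pathway genes (filled, limma adjusted p under 0.05; open, not past it; red line, list median), with the lowest and highest gene of each list named. No phosphatase gene has a filled point above 0, and the p38 downstream list has 9 filled points above 0 and 2 below.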

How the data were processed

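RNA from PC3 cells was measured on 6 Affymetrix arrays, 3 labelled control and 3 labelled PSMA. The deposited values were intensities from GCRMA, per the submitters' processing notes, with its version and scale not given in the sources used here; a linear scale was read from the values (3.76 to 17455, array medians 51.7 to 52.9). GCRMA compresses differences between dim probe sets.

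Values were log2-transformed with no pseudocount. Of 22277 probe sets, 62 controls were left out, 19064 had 1 gene symbol, 1043 several and 2108 were unnamed here. Probe sets were kept if above 52.5, the median of the table, on 3 or more arrays (11303, 50.9%). A gene was represented by its brightest single-gene probe set (7035 genes). Symbols were checked in RefSeq GRCh38.p14 (19052 probe sets found). Differences (PSMA minus control) were tested in R 4.3.3 by limma 3.58.1 (lmFit, eBayes, two-sided, Benjamini-Hochberg over all genes, threshold 0.05), a step tested on simulated data. SDs are over 3 arrays, whose number limits precision. No correction was made for arrays or batches, since the labels give none.

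The members and the pathway lists were chosen with earlier results of these data known. Named were all members; in each list up to 3 genes with the largest increase and decrease past the threshold without overlap of groups, or its brightest; the 5 genes most like MAP2K4; its nearest neighbours; and FOLH1. Others were named after their values were seen. Alternatives covered the filter, normalization, a floor, a pseudocount, the probe sets of a gene, the variance model, a minimum fold and each array. Summaries and plots were made in Python 3.11.15 (pandas 2.3.3, numpy 2.4.6, matplotlib 3.10.9).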

Additional observations from a re-analysis of the deposited data

How the results depend on the processing

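No paired analysis was made because the labels give no pairing of arrays between the groups. Among 40 named pathway genes, 479 of 520 alternative values kept direction and side of the threshold; MAP4K4 reversed to 0.010 with the mean of its probe sets, because its probe sets disagree. When limma tested for a fold above 1.5, it called 526 genes instead of 4476, 747 probe sets instead of 6846 and 7 pathway genes instead of 62. By list these were 1 of the MAP4K and upstream kinases, 0 MAP3K genes, 1 ERK branch gene, 1 other JNK or p38 kinase, 0 GTPases and adaptors, 0 ASK1 partners, 0 scaffolds, 1 phosphatase, 2 transcription factors and 1 gene downstream of p38, because a fold of 1.5 is a higher bar. With no filter, more genes were tested, 3 ASK1 partners passed instead of 6 and 2 scaffolds instead of 1, and with the mean of a gene's probe sets 2 scaffolds passed. Leaving out each array in turn gave 3999 to 4442 genes, 6078 to 6822 probe sets and 57 to 62 pathway genes. Of 158 alternative values of the members' log2 differences, 150 stayed within 1 SD of the main value. MAP2K4 ranged from -2.46 (pseudocount of 16) to -2.59 on its brightest probe set, and MAP4K5 was 0.32 instead of 0.20 with the mean of its probe sets. A sign change or a value of 0 occurred in 8, all on the dim probe sets of MAPK8 and MAP3K1, where signal close to background sets the limit.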

Other observations

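Members without a usable probe set of their own lay among tested genes that did not all move alike. Around MAP3K1 on chromosome 5, 12 of the 14 nearest tested genes were above 0, with a median log2 difference of 0.62. By limma 11 passed as higher, against 30.1% of all tested genes. They included IL6ST (0.90), the shared receptor of the interleukin 6 family, PLK2 (0.68), a stress-responsive kinase, and ESM1 (2.93), a secreted proteoglycan. ESM1 averaged 31.2 on control-labelled arrays, under the median of the table, and 238 on PSMA-labelled arrays, so its size rests on dim signal in the control group. The same holds for SREK1IP1 (0.99), which averaged 30.6 and 60.3. ESM1 and SREK1IP1 are counted in the 11, but were tested mainly through their brighter PSMA-labelled arrays. Around MAPK8 on chromosome 10, 10 of 14 were above 0 (median 0.17), with PTPN20, a phosphatase next to it in order, at -3.31 and ZNF32 at 1.70. PTPN20 averaged 95.8 on control-labelled arrays and 9.57 on PSMA-labelled arrays, and ZNF32 averaged 52.1 and 169. The lower mean lay far under the median of the table for PTPN20 and just under it for ZNF32. The size for PTPN20 is therefore uncertain. Next to MAPK14 on chromosome 6 lay MAPK13 (-0.81), and 3 genes further CDKN1A, which encodes the cell cycle inhibitor p21, at -1.32, while the median of the 14 was -0.06. Around MAP2K7 on chromosome 19, 8 of 14 were below 0, from -0.43 to 0.35.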
